A study of Mus musculus with 8 samples.

Results

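The first 3 hours after the ovulatory stimulus in mouse cumulus cells were examined as the difference between the arrays made 3 h after human chorionic gonadotropin (hCG) and those made before it. Both 3 h arrays, 1 wild-type (WT) and 1 EP2KO, were set against both 0 h arrays, 1 of each genotype, so 4 of the 8 arrays of the study carry the comparison. The other 4 were made at 9 and 14 h and entered the same fit to estimate the spread. All mice were C57Bl/6 females of 3 to 4 weeks. EP2KO mice were Ptger2(-/-), which removes EP2, a receptor for prostaglandin E2, in every cell of the animal. Every animal received 5 IU of pregnant mare serum gonadotropin (PMSG), which acts like follicle-stimulating hormone (FSH), so the 0 h cells were already FSH-primed. The 3 h animals also received 5 IU of hCG, which acts like luteinizing hormone (LH), at 48 h after PMSG, and the 0 h animals were taken at that point without it. Cumulus-oocyte complexes flowed out of large antral follicles opened with a needle, and the cumulus cells were stripped from the oocytes with glass capillaries. From 100 ng of total RNA labelled cRNA was made through 2 rounds of amplification primed at the 3' end. Each time and genotype had 1 array, and the labels do not say how many animals it came from. The p-values below therefore measure the spread between single arrays, which may in part be technical. This spread is what time and genotype leave over in the fit, so any genotype difference that varies with time is part of it.

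Cumulus cells are the granulosa-derived cells that surround the oocyte. LH and hCG act mainly on the outer, mural granulosa cells, which release EGF-like growth factors and prostaglandins. These switch on MAP kinase and cAMP signalling in the cumulus, and the cells respond with a burst of early transcription, a hyaluronan matrix and a loss of their contacts with the oocyte.

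The labelled cell type was checked first. Granulosa genes were well measured at 0 h: the FSH receptor gene Fshr had log2 levels of 10.78 in WT and 11.11 in EP2KO at 0 h and 9.69 and 9.71 at 3 h, and Inhbb, which encodes a subunit of inhibin B and activin, had 12.65 in WT and 12.79 in EP2KO at 0 h and 11.17 and 11.80 at 3 h. Both are granulosa products, and both stood lower on the 3 h arrays with no overlap. Of the 11 measured cumulus and granulosa markers 5 rose and 4 fell in the test described below, with a median change of −0.02. These are 45.5% and 36.4%, against 20.1% and 23% of all genes. Fshr and Inhbb were the 2 that fell at least 2-fold. The deleted receptor's gene, Ptger2, had levels of 4.95 in WT and 4.57 in EP2KO at 0 h and 5.97 and 4.24 at 3 h, so it was higher at 3 h in WT only, and its mean change of 0.35 did not pass. Its probes were not placed against the deletion here. Leukocyte, theca and stroma, endothelial and epithelial markers are given with their values further on.

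A level here is a deposited log2 value, a change is the 3 h level minus the 0 h level averaged over WT and EP2KO, and a change of 1 is a 2-fold change. Rose and fell are used only where limma's moderated test, adjusted over all 12422 probe sets, gave p under 0.05. By that rule 2161 probe sets rose, 17.4% of those tested, and 3152 fell, 25.4%. Of these, 570 rose at least 2-fold, 4.59%, but only 121 fell at least 2-fold, 0.974%. Counted by gene, with each of 8251 genes represented by its brightest probe set, 20.1% rose and 23% fell, 5.38% rose at least 2-fold (444 genes) and 0.691% fell at least 2-fold (57 genes). The list counts below stand beside these shares by gene. As deposited, large changes were thus mainly rises and small changes mainly falls. Over all probe sets the change had a median of −0.135 with the deposited values and of −0.06 once array medians had been subtracted (centring), and centring turned the balance of calls from 40.7% to 53.1% higher. Of the 5313 calls in all, the count went to 1897 when the WT array of 0 h was left out and to 1901 when the WT array of 3 h was, and a fit on the 4 arrays of 0 and 3 h alone called 2888. Both 3 h arrays lay above both 0 h arrays in 3285 of the 12422 probe sets and below them in 5942. All 570 rises of at least 2-fold lay above in this way and all 121 such falls below, so this separation adds no evidence to those calls. The arrays' medians lay between 7.79 and 7.89. The Gapdh 3' minus 5' control difference was 1.86 and 1.48 on the WT and EP2KO arrays at 0 h and 0.80 and 0.96 at 3 h. For Actb it was 0.97 and 0.69 at 0 h and 0.73 and 0.76 at 3 h. For the transferrin receptor it was 1.45 and 1.46, then 1.51 and 1.38. For pyruvate carboxylase it was 0.23 and 0.33, then −0.16 and −0.12. The part of these control differences in the results was not tested. In RNA from whole cell samples, fewer cells of a kind and less RNA per cell cannot be told apart.

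Promoters are shown first for 4 of the strongest risers, because CREB, the classical nuclear target of cAMP and protein kinase A, binds the cAMP response element. The windows run from 250 bases before to 50 bases after the RefSeq gene start on GRCm38.p6. The genes are those with the largest rise among named genes that held its core TGACG (on either strand, so also CGTCA) in a promoter of the RefSeq table. Capitals mark this core and matches to TGANTCA, the AP-1 site bound by FOS and JUN proteins. The Ptgs2 window is chr1:150099781-150100080 on the plus strand, Procr chr2:155750967-155751266 plus, Srxn1 chr2:152105274-152105573 plus and Rgcc chr14:79301586-79301885 minus.
Ptgs2: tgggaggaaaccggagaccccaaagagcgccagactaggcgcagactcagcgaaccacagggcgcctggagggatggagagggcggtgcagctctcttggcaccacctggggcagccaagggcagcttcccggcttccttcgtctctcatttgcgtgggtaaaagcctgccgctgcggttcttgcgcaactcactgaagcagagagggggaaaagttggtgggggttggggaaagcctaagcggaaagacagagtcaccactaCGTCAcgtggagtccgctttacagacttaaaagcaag
Procr: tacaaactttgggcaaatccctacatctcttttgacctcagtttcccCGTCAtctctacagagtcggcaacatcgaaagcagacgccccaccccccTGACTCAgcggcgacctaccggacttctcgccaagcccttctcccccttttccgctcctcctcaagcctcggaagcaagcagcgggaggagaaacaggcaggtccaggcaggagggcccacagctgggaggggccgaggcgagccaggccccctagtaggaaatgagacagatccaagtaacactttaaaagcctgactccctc
Srxn1: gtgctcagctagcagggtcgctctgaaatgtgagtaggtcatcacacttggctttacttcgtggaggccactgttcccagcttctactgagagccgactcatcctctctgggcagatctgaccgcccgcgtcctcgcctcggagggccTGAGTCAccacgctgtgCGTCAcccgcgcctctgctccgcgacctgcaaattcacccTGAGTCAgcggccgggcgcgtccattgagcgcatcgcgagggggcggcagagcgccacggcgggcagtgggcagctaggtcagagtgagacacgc
Rgcc: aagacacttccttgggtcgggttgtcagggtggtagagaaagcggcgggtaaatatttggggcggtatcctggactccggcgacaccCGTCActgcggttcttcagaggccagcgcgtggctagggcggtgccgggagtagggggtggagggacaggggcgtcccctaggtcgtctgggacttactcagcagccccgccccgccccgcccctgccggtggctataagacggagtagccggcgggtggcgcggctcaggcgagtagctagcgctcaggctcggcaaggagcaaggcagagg
Positions are counted from the gene start and given for the first base of a match. In Ptgs2 TGACG, read on the other strand, lay at 13. In Procr it lay at −203 and an AP-1 match at −154. Srxn1 held it at −85, between AP-1 matches at −102 and −45. In Rgcc it lay at −163. The core stood in 38.5% of 444 promoters (from 357 genes with a promoter in the table) of genes that rose at least 2-fold. It stood in 28.5% of the 8412 promoters of all array genes, in 20.3% of 64 promoters of genes that fell at least 2-fold, and in 20.8% of all 32851 promoters. The full element TGACGTCA, which contains the core, was in 4.05%, 2.6%, 0% and 1.79% of the same sets, but in 3 of 27 promoters (11.1%) of the 24 named fallers and in 1 of 20 (5%) of the 24 named risers. The AP-1 match stood in 6.08%, 6.24%, 7.81% and 7.81%, and CCAAT, the box bound by NF-Y, in 39%, 37%, 42.2% and 37.4%. These are matches of letters in a window, not measured binding.

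Signals from outside the cell were the first group. Ptgs2, the inducible cyclooxygenase that makes the prostaglandin precursor, had levels of 4.83 in WT and 5.03 in EP2KO at 0 h and 12.27 and 11.57 at 3 h. It was low on both 0 h arrays and high on both 3 h arrays, a change of 6.99 ± 0.24 (SE, adjusted p = 1.33e-07). Of the 20 measured genes of prostaglandin synthesis, reception and breakdown 7 rose and 4 fell, and 6 rose at least 2-fold. These are 35%, 20% and 30%, against 20.1%, 23% and 5.38% of all genes. The route from membrane lipid to prostaglandin E2 rose at several steps: Pla2g4a, the phospholipase that frees arachidonic acid, by 1.48, and Ptges, which completes the synthesis, by 1.19. Acsl4, which couples arachidonic acid to coenzyme A, rose by 2.73. Akr1b8, an aldo-keto reductase, had levels of 8.17 in WT and 8.19 in EP2KO at 0 h and 11.95 and 11 at 3 h, and both 3 h arrays were above both 0 h arrays. Among the receptors, Ptger4 (EP4), which also raises cAMP, had levels of 6.36 in WT and 5.91 in EP2KO at 0 h and 8.82 and 7.39 at 3 h and rose by 1.97. Hpgd, which inactivates prostaglandins, fell by 0.72.

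Some EGF-like growth factors rose in the cumulus cells, and so did inhibitors of the pathway they drive. Of 25 measured genes of this list 7 rose, 5 of them at least 2-fold, and 4 fell. These are 28%, 20% and 16%, against 20.1%, 5.38% and 23% of all genes. Ereg (epiregulin), a ligand of the EGF receptor, had levels of 6.16 in WT and 5.84 in EP2KO at 0 h and 9.16 and 8.22 at 3 h, and Btc (betacellulin) had 4.93 in WT and 4.83 in EP2KO at 0 h and 7.63 and 7.02 at 3 h. For both ligands the 3 h arrays lay well above the 0 h arrays in each genotype, with changes of 2.69 ± 0.27 (SE, adjusted p = 0.000126) and 2.45 ± 0.18 (SE, adjusted p = 2.23e-05). Other ligands did not follow them: Hbegf stood at −0.22 and Tgfa at −0.13, neither past the test, and Egf fell by 0.53. The receptor Egfr itself was at −0.06 and did not pass. Errfi1, which binds and inhibits the EGF receptor, rose by 2.97, and Dusp6, the phosphatase that switches off ERK, had levels of 7.06 in WT and 7.08 in EP2KO at 0 h and 10.14 and 9.59 at 3 h. Both were higher on the 3 h arrays without overlap, although a dim second Dusp6 probe set fell by 0.97. Spred2, an inhibitor of RAS to ERK signalling, rose by 1.56 and Dusp16 by 0.86, while Spry4 fell by 0.36 and Map3k1, a kinase upstream of JNK, fell by 1.35.

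In the cAMP list 5 of 28 genes were higher (17.9%) and 8 lower (28.6%), not far from the 20.1% and 23% of all genes. Crem, a cAMP-inducible member of the CREB family whose short form is a repressor, had levels of 6.55 in WT and 6.20 in EP2KO at 0 h and 11.24 and 9.60 at 3 h. The WT array at 3 h was higher than the EP2KO array, and both were above the 0 h arrays, with a change of 4.05 ± 0.26 (SE, adjusted p = 1.14e-05), and a second probe set rose by 3.77. Prkar1a, a regulatory subunit that holds protein kinase A inactive, rose by 1.11, and Rgs2, which damps G protein signals, by 1.08. Prkacb, a catalytic subunit, fell by 0.85, Prkar2a by 0.55, Akap1, an anchor of the kinase, by 0.66, and Pde4b, a phosphodiesterase, by 0.66. Creb1 stood at 0.02 and did not pass.

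**Figure D1:**
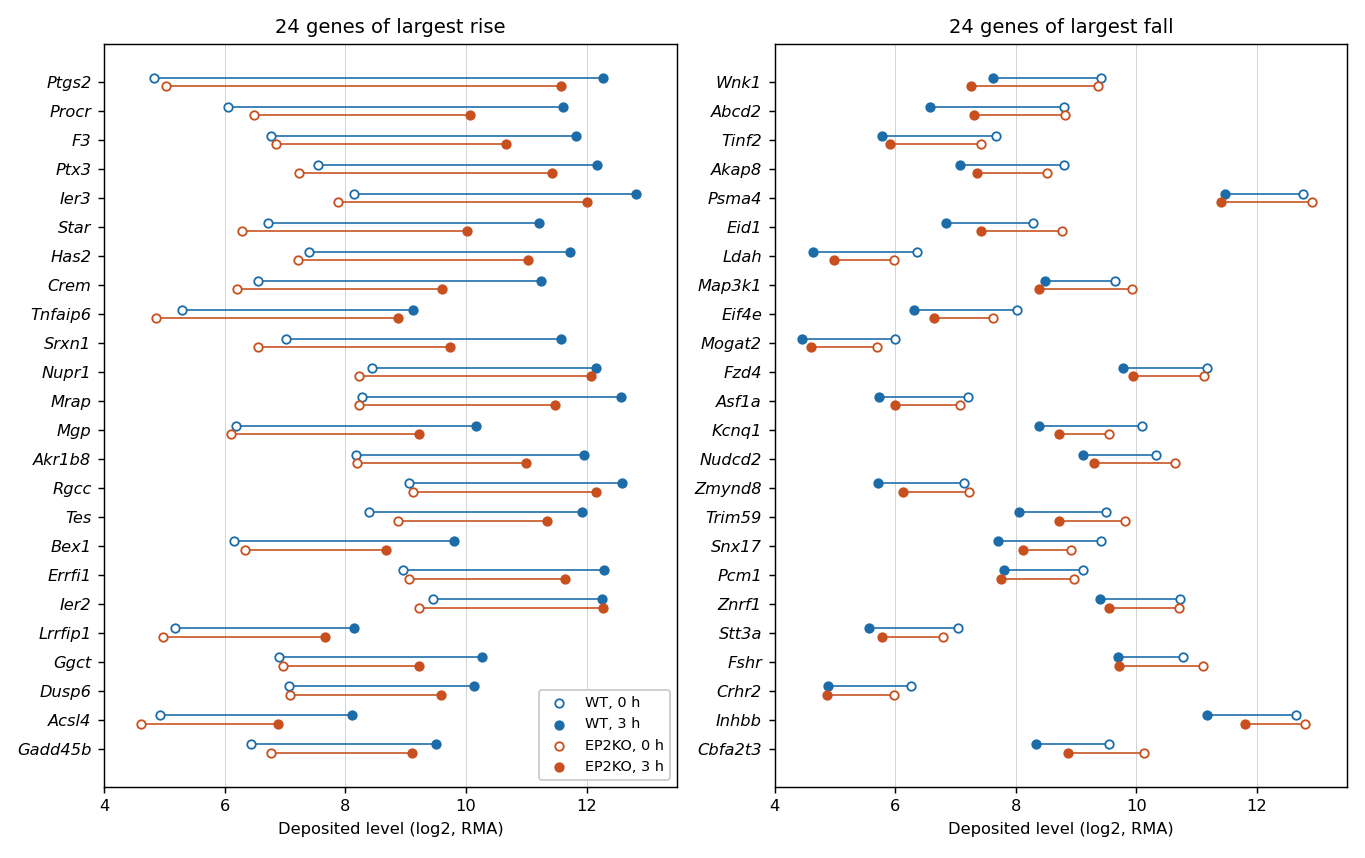
Deposited log2 levels (horizontal axis) of the 24 genes with the largest rise (left) and the 24 with the largest fall (right) on the 4 arrays; open points are 0 h, filled points 3 h, blue WT and orange EP2KO, with lines joining the arrays of 1 genotype. For all 24 risers both filled points lie to the right of both open points, and for all 24 fallers to the left, and the rises span up to 6.99 against at most 1.96 for the falls. Of all 12422 probe sets, 3285 had both 3 h arrays above both 0 h arrays and 5942 had both below.

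Immediate early transcription factors followed. Of 25 measured members 14 rose, 9 of them at least 2-fold, and 1 fell, with a median change of 0.51 against −0.10 for all genes. These are 56%, 36% and 4%, against 20.1%, 5.38% and 23% of all genes. Ier3, an early gene that dampens cell death, had levels of 8.15 in WT and 7.88 in EP2KO at 0 h and 12.82 and 12.00 at 3 h. Ier2, a nuclear protein of the same early class, had 9.45 in WT and 9.22 in EP2KO at 0 h and 12.26 and 12.28 at 3 h. Both stood higher on each 3 h array than on each 0 h array, with changes of 4.40 ± 0.18 (SE, adjusted p = 5.1e-07) and 2.94 ± 0.19 (SE, adjusted p = 1.2e-05). Klf4, a zinc finger factor, rose by 2.59, Nr4a1, an orphan nuclear receptor, by 2.07, Junb, an AP-1 subunit, by 2.09, Egr1 by 1.38 and Myc by 1.11. Fos, the partner of JUN proteins and often the first gene to respond, had levels of 11.45 in WT and 11.07 in EP2KO at 0 h and 11.17 and 11.39 at 3 h and did not pass, and Jund fell by 0.42. The AP-1 genes of this list were thus not raised alike at 3 h, since Junb, Jun and Fosl1 rose and Fos, Fosb and Fosl2 did not pass.

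The ovulatory transcription factors split evenly, with 8 of 29 higher and 8 lower, 27.6% each against 20.1% and 23% of all genes. Cebpb, which is needed for ovulation and luteinization, had levels of 9.73 in WT and 10.10 in EP2KO at 0 h and 12.25 and 11.72 at 3 h, and Cebpd rose by 1.17, Cebpa by 0.75 and Cebpg by 0.66. All 4 C/EBP genes measured in this list passed. Pparg rose by 1.25, Nfe2l2, the antioxidant regulator NRF2, by 1.04, Nrip1, a corepressor required for ovulation, by 0.81, and the progesterone receptor gene Pgr by 0.52. Runx1 stood at 0.39 and did not pass. Factors that maintain the granulosa state fell: Nr5a1 (SF-1) by 0.48, Nr5a2 (LRH-1) by 0.50 and Gata4 by 0.61, and Ppara fell by 0.84. Clock genes were mostly within the spread, with 3 of 17 higher, 17.6% against 20.1% of all genes. Bhlhe40, a repressor of clock transcription, led them at 1.68, followed by Nfil3 at 0.97. The NF-kappa-B list had 2 of 19 higher and 6 lower. Its inhibitor gene Nfkbia rose by 0.86, whereas Tnfaip3, another feedback inhibitor, fell by 0.60 and Icam1 by 0.34.

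Secreted effectors of cumulus expansion made up several of the largest rises. Has2, which polymerises hyaluronan, had levels of 7.39 in WT and 7.21 in EP2KO at 0 h and 11.73 and 11.03 at 3 h. Tnfaip6 (TSG-6), which transfers the heavy chains of inter-alpha-inhibitor to hyaluronan, had 5.29 in WT and 4.86 in EP2KO at 0 h and 9.13 and 8.88 at 3 h, and Ptx3, a pentraxin that crosslinks them, had 7.54 in WT and 7.23 in EP2KO at 0 h and 12.18 and 11.43 at 3 h. In all 3 genes the 3 h arrays were far above the 0 h arrays in both genotypes, with changes of 4.08, 3.93 and 4.42. The rest of the matrix list moved less: of 27 measured genes 7 rose and 3 fell, and the median change was −0.07. These are 25.9% and 11.1%, against 20.1% and 23% of all genes. Vcan (versican), which binds hyaluronan, rose by 1.45, and Ugdh, which makes the hyaluronan precursor UDP-glucuronic acid, by 0.82. Cd44, the hyaluronan receptor, stood at 0.20 and Adamts1, a versican-cleaving protease, at −0.04, neither past the test. Adamts1 had levels of 3.53 in WT and 3.60 in EP2KO at 0 h and 3.56 and 3.49 at 3 h. These are near 3.426, the lowest mean level of any probe set, so a change of this gene could have been missed. Has3 fell by 0.64 and Bgn (biglycan) by 0.59. Mgp, a matrix protein that blocks calcification, had levels of 6.19 in WT and 6.10 in EP2KO at 0 h and 10.17 and 9.23 at 3 h, and rose by 3.56.

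Genes of blood clotting stood among the largest rises beside the matrix genes. Procr, the endothelial receptor for protein C, had levels of 6.06 in WT and 6.49 in EP2KO at 0 h and 11.61 and 10.06 at 3 h. F3, tissue factor, which starts the clotting cascade, had 6.77 in WT and 6.85 in EP2KO at 0 h and 11.83 and 10.66 at 3 h. Both rose by over 4 on the log2 scale, Procr by 4.56 ± 0.36 (SE, adjusted p = 3.45e-05) and F3 by 4.44 ± 0.29 (SE, adjusted p = 1.31e-05), and for both the WT array at 3 h was over 1 higher than the EP2KO array. F2r, the thrombin receptor, rose by 1.35, Anxa2 and S100a10, which together bind plasminogen at the cell surface, by 1.64 and 1.75, and Plaur, the urokinase receptor, by 0.55. Of the 23 measured genes 7 rose (30.4%) and 8 fell (34.8%), against 20.1% and 23% of all genes. Plau (urokinase) fell by 0.48, and Plat (tissue plasminogen activator) stood at 0.09. Among matrix proteases, Pcsk5, a proprotein convertase, rose by 1.86, Ctsl (cathepsin L) by 1.01 and Timp1 by 0.80, whereas Mmp14 fell by 1.01. Among cytokines and their receptors 4 of 38 rose, led by Il1r1, the interleukin-1 receptor, at 2.26, and 5 fell. Il6, Cxcl1 and Ccl2 stood at 0.11, 0.29 and 0.00 and did not pass.

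Genes of steroid synthesis and cholesterol supply rose in part, 9 of 19 (47.4%), and none of them fell, against 20.1% and 23% of all genes. Star, which carries cholesterol into the mitochondrion, had levels of 6.72 in WT and 6.29 in EP2KO at 0 h and 11.22 and 10.01 at 3 h and rose by 4.11 ± 0.18 (SE, adjusted p = 5.63e-07), while a second Star probe set stood at 0.16 and did not pass. Mrap, an accessory protein of melanocortin receptors, had levels of 8.27 in WT and 8.22 in EP2KO at 0 h and 12.57 and 11.47 at 3 h. Both genes had all 3 h values above all 0 h values. Fdx1, the electron donor of the mitochondrial steroid enzymes, rose by 2.50, Hsd3b1, which makes progesterone, by 1.04, and Scarb1, the HDL receptor, by 0.72. Cyp11a1, which cleaves the cholesterol side chain, had levels of 8.57 in WT and 9.31 in EP2KO at 0 h and 9.76 and 9.48 at 3 h and did not pass. Of 18 genes of cholesterol synthesis 11 rose (61.1%) and 1 fell (5.56%), with a median change of 0.52. Cyp51 rose by 1.64, Idi1 by 1.57 and Hmgcs1 by 1.40, and Insig1, which holds the pathway back, fell by 0.41.

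The antioxidant, amino acid and polyamine lists held more rises than falls, where 20.1% of all genes rose and 23% fell. Srxn1 (sulfiredoxin), which repairs peroxiredoxins, had levels of 7.01 in WT and 6.55 in EP2KO at 0 h and 11.58 and 9.73 at 3 h, and Nupr1, a stress-induced nuclear protein, had 8.45 in WT and 8.22 in EP2KO at 0 h and 12.15 and 12.08 at 3 h. Both 3 h arrays were above both 0 h arrays for each gene, with WT above EP2KO for Srxn1 and the genotypes close for Nupr1, although a second Srxn1 probe set fell by 0.87. In the NRF2 and antioxidant list 11 of 27 rose (40.7%) and 4 fell (14.8%). The metallothioneins Mt1 and Mt2 rose by 1.78 and 1.77, and Sod1 by 1.35, while other well-known NRF2 targets did not pass, Hmox1 at −0.25 and Nqo1 at −0.23, and Gpx3 fell by 0.78. Of 34 ATF4 target and amino acid genes 17 rose (50%) and 3 fell (8.82%). Atf4 itself rose by 1.65, Eif4ebp1, a brake on translation, by 1.44, the aminoacyl-tRNA synthetase genes Eprs, Cars and Tars by 1.33, 1.12 and 1.05, and the serine synthesis gene Psat1 by 1.13. Asns and Trib3, which respond strongly to ATF4 elsewhere, stood at −0.04 and −0.04, and Shmt2 fell by 0.97. Odc1, the rate-limiting enzyme of polyamine synthesis, had levels of 10.02 in WT and 10.19 in EP2KO at 0 h and 12.59 and 12.06 at 3 h. Of 11 polyamine genes 6 rose (54.5%) and 2 fell (18.2%).

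Protein folding and ribosome assembly genes had more rises than falls, where 20.1% of all genes rose and 23% fell. Of 25 endoplasmic reticulum chaperone genes 14 rose (56%) and 3 fell (12%). Of 33 heat shock and cytosolic chaperone genes 15 rose (45.5%) and 4 fell (12.1%), and of 35 nucleolar genes 19 rose (54.3%) and 3 fell (8.57%). The medians of the lists were 0.38, 0.37 and 0.41. Dnajb11 rose by 1.65, Xbp1, the factor of the unfolded protein response, by 0.70 and Hspa5 (BiP) by 0.61, whereas Pdia4 fell by 0.90. The chaperonin subunits Cct8 and Cct3 rose by 1.74 and 1.5. Among nucleolar genes Gnl2 rose by 1.36 and Nop56 by 1.16, and Npm1 by 0.46. Cytoplasmic ribosomal protein genes were less uniform, with 12 of 31 higher (38.7%) and 7 lower (22.6%), from Rps7 at 1.61 to Fau at −0.68. They are bright, with a median level of 12.17, and 39.8% of the brightest quintile of probe sets rose. Transcripts for the first steps of glucose use rose: Slc2a1 (GLUT1) by 1.15, Hk1 and Hk2, which trap glucose, by 1.44 and 1.16. Vegfa, the angiogenic factor, rose by 1.89. Bnip3, a hypoxia-responsive mitochondrial gene, fell by 1.05, and Ldha stood at 0.35, so the 26 genes of that list did not move as one. Of these 8 rose (30.8%) and 3 fell (11.5%).

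**Figure D2:**
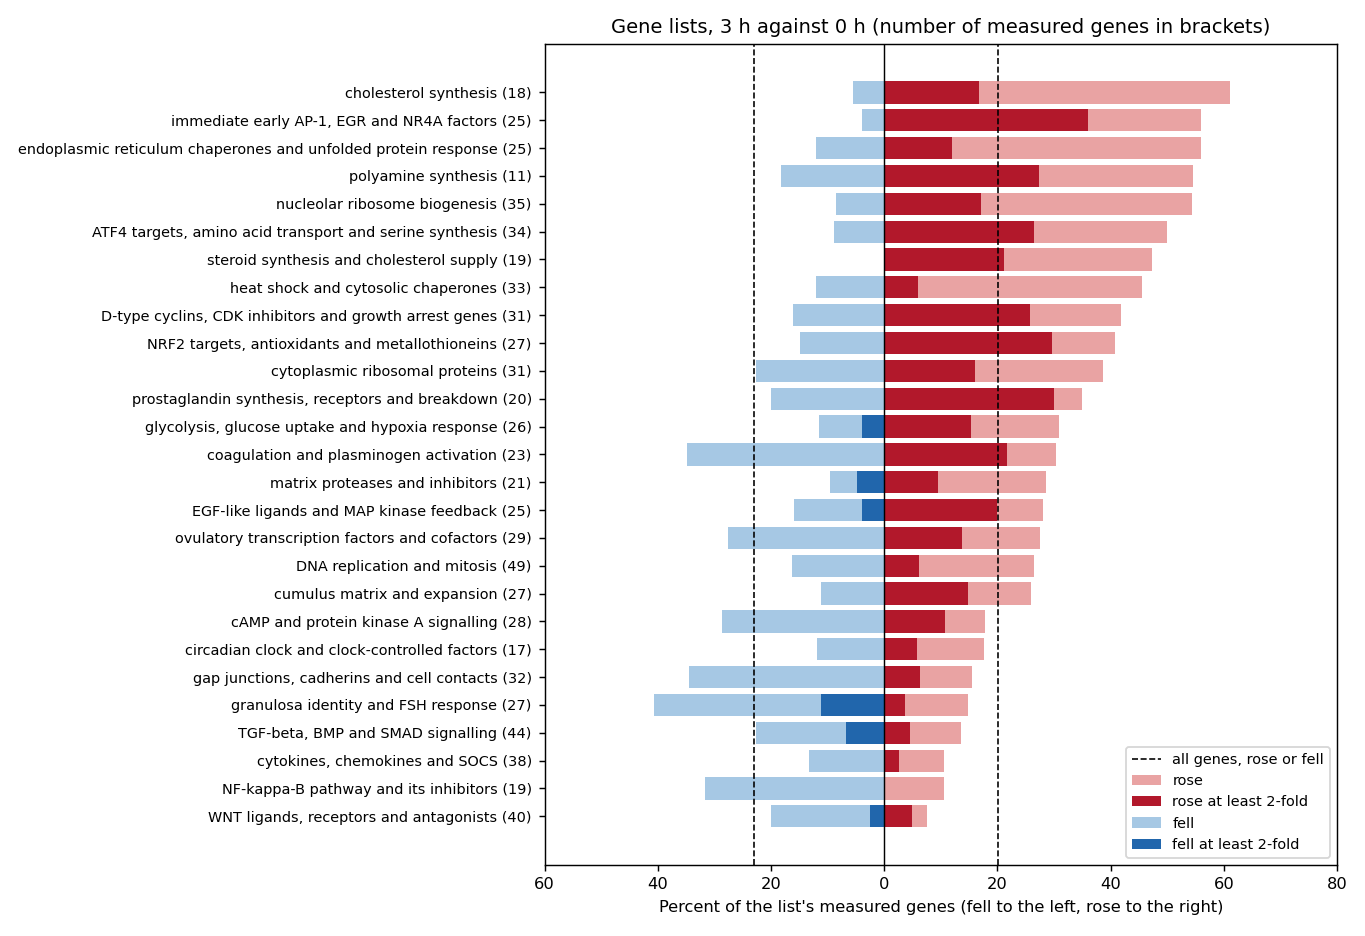
Percent of measured genes in each function list shown (number in brackets) that rose (right, red) or fell (left, blue) from 0 to 3 h, with the dark part for changes of at least 2-fold; dashed lines mark all 8251 genes, 20.1% higher and 23% lower. Cholesterol synthesis, with 11 of 18 genes higher, is at the top, and the granulosa list, with 11 of 27 lower, reaches farthest to the left.

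Genes of cell shape and contact changed member by member. The tropomyosins Tpm4 and Tpm1, which stabilise actin filaments, rose by 2.58 and 2.07, whereas Tpm2 fell by 0.44 and Tpm3 stood at −0.09 and did not pass. Tagln2 rose by 2.18, the membrane linker Ezr (ezrin) by 1.05 and Ccn2 (CTGF) by 1.15. Cfl1 (cofilin), which severs actin filaments, had levels of 10.35 in WT and 10.60 in EP2KO at 0 h and 9.31 and 9.34 at 3 h and fell by 1.15. Tes (testin), a focal adhesion protein, had levels of 8.40 in WT and 8.88 in EP2KO at 0 h and 11.92 and 11.34 at 3 h, with both 3 h arrays above both 0 h arrays. Of 32 contact genes 5 rose (15.6%) and 11 fell (34.4%), against 20.1% and 23% of all genes, and no member fell 2-fold. Gja1 (connexin 43), the main gap junction gene of granulosa cells, had levels of 13.42 in WT and 13.33 in EP2KO at 0 h and 13.39 and 13.43 at 3 h and did not pass. Gja4 (connexin 37), which forms the channels on the oocyte side, fell by 0.53, Jup by 0.75 and Cldn11 by 0.81, and Alcam, an adhesion molecule, rose by 2.29.

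The granulosa and FSH-response list had the largest share of falls among the 28 function lists, 11 of 27 genes, against 4 rises. That share was 40.7%, where 23% of all genes fell. Fshr fell by 1.25 ± 0.13 (SE; limma, adjusted p = 0.000132), and Inhbb by 1.24 ± 0.21 (adjusted p = 0.00185). Bmpr1b, the receptor for the oocyte's BMP15, had levels of 8.34 in WT and 8.48 in EP2KO at 0 h and 7.17 and 7.29 at 3 h, lower on both 3 h arrays. These 3 genes are the ones of the list that fell at least 2-fold. Inha fell by 0.48, Wt1 by 0.61 and Igf1 by 0.40. Amh, Esr2 and Fst stood at −0.20, −0.03 and −0.01 and did not pass. Sfrp4, a secreted WNT antagonist, rose by 1.70, Inhba, the activin A subunit, by 0.51 and Kitl, which signals to the oocyte, by 0.54.

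TGF-beta and BMP genes had 6 of 44 higher (13.6%) and 10 lower (22.7%), against 20.1% and 23% of all genes. Smad7, an inhibitory SMAD induced by the pathway itself, had levels of 9.84 in WT and 9.92 in EP2KO at 0 h and 8.71 and 8.90 at 3 h and fell by 1.08. Bmp6 rose by 1.22 and the BMP targets Id1 and Id3 by 1.08 and 0.72, and Tgif1, a corepressor of SMADs, by 0.95. In the WNT list 3 of 40 rose (7.5%) and 8 fell (20%), both shares below those of all genes. Fzd4, a frizzled receptor that granulosa cells express strongly, had levels of 11.17 in WT and 11.12 in EP2KO at 0 h and 9.77 and 9.94 at 3 h, with all 3 h values below all 0 h values. Its change was −1.29 ± 0.13 (SE, adjusted p = 0.000125), while 2 dim probe sets of the gene did not pass. Wnt11 rose by 1.31.

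Of 31 cyclin and arrest genes 13 rose, 8 of them at least 2-fold, and 5 fell. These are 41.9%, 25.8% and 16.1%, against 20.1%, 5.38% and 23% of all genes. Cdkn1a (p21), an inhibitor of cyclin-dependent kinases, had levels of 9.35 in WT and 9.20 in EP2KO at 0 h and 11.16 and 10.11 at 3 h, higher on both 3 h arrays. Plk2 rose by 2.28, the antiproliferative Btg1 by 2.09, Sgk1, a kinase of cell survival, by 1.92, and Gadd45a and Gadd45g by 1.04 and 1.22. Gadd45b rose by 2.70 on the probe set of smallest p and by 1.0 on its brightest. Ccnd1 fell by 0.47, Ccnd2, the FSH-driven cyclin of granulosa cells, stood at 0.38, and Cdkn1b (p27) fell by 0.47. Of 49 replication and mitosis genes 13 rose (26.5%) and 8 fell (16.3%), against 20.1% and 23% of all genes. Cks2 rose by 1.27 and Mcm4 by 0.75, and the mitotic motors Cenpe and Kif11 fell by 0.76 and 0.72. Rgcc, a regulator of the cell cycle, had levels of 9.06 in WT and 9.12 in EP2KO at 0 h and 12.59 and 12.15 at 3 h, and rose by 3.28 ± 0.14 (SE, adjusted p = 5.1e-07).

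Of the named risers outside these lists, Bex1, a small adaptor protein, had levels of 6.16 in WT and 6.34 in EP2KO at 0 h and 9.80 and 8.68 at 3 h. Ggct, which acts in glutathione breakdown, had 6.90 in WT and 6.96 in EP2KO at 0 h and 10.26 and 9.22 at 3 h. Lrrfip1, an RNA-binding protein, had 5.17 in WT and 4.97 in EP2KO at 0 h and 8.14 and 7.67 at 3 h. All 3 had higher values on both 3 h arrays, with changes of 2.99, 2.81 and 2.84, but for Lrrfip1 a brighter probe set fell by 0.51.

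The largest falls were smaller than the largest rises. Abcd2, a peroxisomal fatty acid transporter, had levels of 8.80 in WT and 8.82 in EP2KO at 0 h and 6.58 and 7.31 at 3 h and fell by 1.87 ± 0.17 (SE; adjusted p = 6.43e-05). Wnk1, a kinase of ion transport, had levels of 9.41 in WT and 9.37 in EP2KO at 0 h and 7.62 and 7.25 at 3 h, and Psma4, a proteasome subunit, had 12.76 in WT and 12.92 in EP2KO at 0 h and 11.47 and 11.41 at 3 h. In each of them both 3 h arrays lay below both 0 h arrays on the named probe set. A second Wnk1 probe set fell by 1.85, but the brightest of that gene stood at 0.33 and passed, as a rise, only after centring. Of the 24 genes named for the largest fall, 8 have a single probe set: Abcd2, Psma4, Eid1, Zmynd8, Trim59, Pcm1, Fshr and Inhbb. Of the 16 with several, 5 had another probe set called lower, 3 had one called higher and 8 had no other called. Of the 24 named risers 9 have several, and 4 of these had another probe set called higher, 3 had one called lower and 2 had no other called. The named probe set was not the brightest in 9 of the 16 fallers and in 4 of the 9 risers with several. Tinf2, a telomere protein, fell by 1.70 on 1 probe set and rose by 0.70 on its brighter one, Eif4e, the cap-binding protein, fell by 1.34 and rose by 0.68 on a dimmer one, and Asf1a, a histone chaperone, fell by 1.28 and rose by 0.41. For these 3 genes the data give no single direction. Probe sets whose names end in _r_at, which were built with relaxed probe selection, were 901 of 12422 but 46 of the 121 falls of at least 2-fold, that is 5.11% of them against 0.572% of the 9614 plain _at probe sets. Insl3, the theca hormone, was among them, with levels of 8.21 in WT and 7.91 in EP2KO at 0 h and 6.81 and 7.01 at 3 h.

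**Figure D3:**
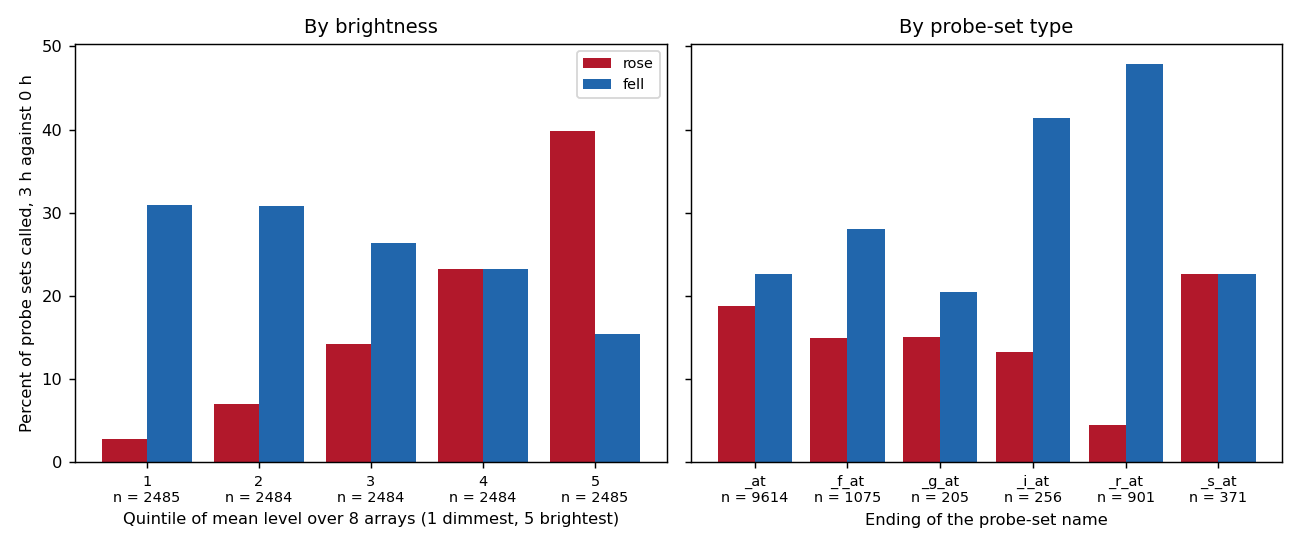
Percent of probe sets that rose (red) or fell (blue) from 0 to 3 h, by quintile of mean level (left) and by the ending of the probe-set name (right), with the number of probe sets under each pair. The share that rose climbs from 2.86% in the dimmest quintile to 39.8% in the brightest, the share that fell drops from 30.9% to 15.4%, and 47.9% of _r_at probe sets fell.

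Brightness therefore moved with the direction of the calls. In the dimmest quintile of probe sets the median change was −0.22, and in the brightest it was 0.22. Lists of steroid, cholesterol, antioxidant, amino acid, polyamine, chaperone and ribosome genes had median levels from 8.91 to 12.17, against 8.25 for all genes. The granulosa list, with more falls than rises, had 9.77. The part of brightness in the list counts was not tested. The spread of levels was also wider after hCG, with standard deviations across probe sets at 3 h of 1.99 (WT) and 1.96 (EP2KO), and at 0 h of 1.77 and 1.84. Most markers of other cell types did not pass. Their counts stand beside 23% of all genes lower and a median change of −0.10. In the dimmest 3 quintiles 30.9%, 30.8% and 26.4% of probe sets fell. Median levels were 7.35, 7.49, 7.61 and 8.14 for leukocyte, theca and stroma, endothelial and epithelial markers, against 8.25 for all genes. Of 29 leukocyte markers 9 fell (31%) and none rose, with a median of −0.26. The log2 of their summed signal was 12.77 and 12.68 at 0 h and 12.38 and 12.40 at 3 h. Among the 22 markers of theca and stroma there were 10 falls (45.5%) and no rise. Their median was −0.32, and their summed signal was 12.56 and 12.40 at 0 h and 11.97 and 12.07 at 3 h. Of 14 endothelial markers 4 fell (28.6%), with summed signal from 11.65 to 11.80 at 0 h and 11.52 to 11.56 at 3 h. Of 13 epithelial markers 4 fell (30.8%) and 1 rose, with 11.78 to 11.86 and 11.76 to 11.78. Among 7 erythroid markers Hba-a1 (haemoglobin alpha) rose by 1.61, with levels of 9.79 in WT and 10.21 in EP2KO at 0 h and 12.21 and 11 at 3 h, highest on the WT 3 h array, and the list's summed signal was 11.39 and 11.52 at 0 h and 12.71 and 11.90 at 3 h. Of 3 mural granulosa markers Nppc, the natriuretic peptide that holds meiosis, rose by 0.36, from 6.90 in WT and 6.84 in EP2KO to 7.08 and 7.37. Cyp11a1, the brightest of them, and Cd34, at −0.31 and also listed as endothelial, did not pass. The summed signal of the list was 9.24 and 9.69 at 0 h and 10.08 and 9.89 at 3 h. After centring on array medians, the genes that fell numbered 5 instead of 9 for leukocyte markers, 5 instead of 10 for theca and stroma, 8 instead of 11 for the granulosa list, 7 instead of 11 for contacts, 6 instead of 10 for TGF-beta and BMP, 4 instead of 8 for cAMP and 3 instead of 8 for WNT. With that centring Egf, Spry4, Jund, Nr5a2, Icam1, Insig1, Bnip3, Inha and Cdkn1b kept their direction but no longer passed. No marker is listed at 0, since these values have a floor, and the part of other cells in the changes was not tested.

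Most of the large changes were larger in WT than in EP2KO. Among the 570 probe sets that rose at least 2-fold, the rise was larger in WT in 544, with median changes of 1.59 in WT and 1.06 in EP2KO. Among the 121 that fell at least 2-fold the fall was larger in WT in 92, with medians of −1.32 and −1.03. The same held after quantile normalization, which gives all arrays 1 distribution, with larger rises in WT in 516 and medians of 1.43 and 0.97. Across all 12422 probe sets the standard deviation of the change was 0.66 in WT and 0.46 in EP2KO, and the changes correlated with r = 0.858, a description over probe sets that share the 4 arrays. Crem, Procr and Srxn1 were among the genes with the larger rise in WT, whereas Tnfaip6, Nupr1 and Ier2 had the slightly larger change in EP2KO. With 1 array per genotype and time, a weaker response and a different array or collection cannot be told apart.

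**Figure D4:**
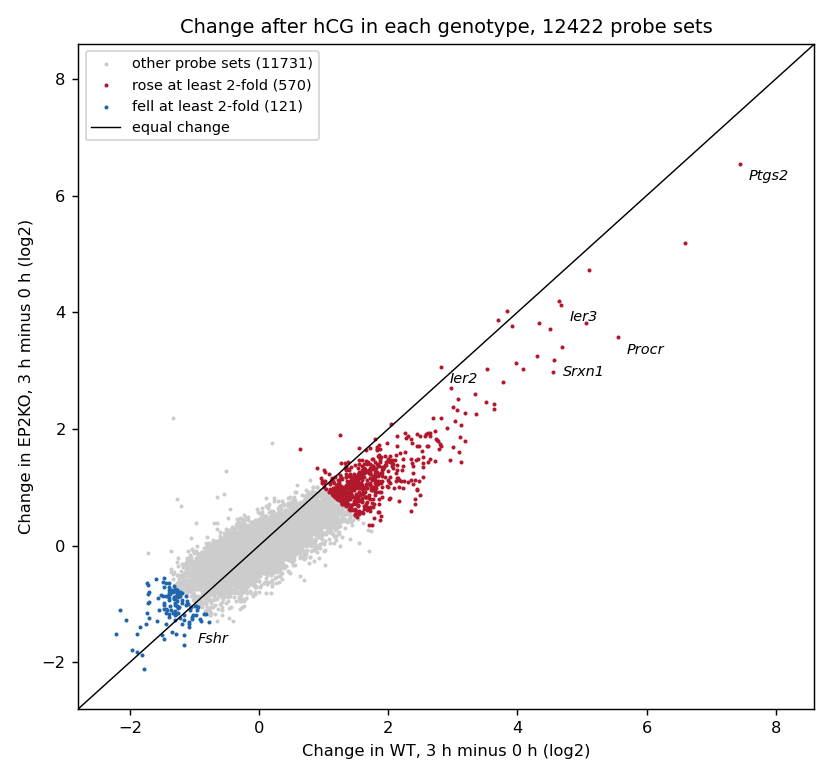
Change from 0 to 3 h in WT (horizontal axis) and in EP2KO (vertical axis), both log2, for 12422 probe sets; red points rose at least 2-fold (570), blue points fell at least 2-fold (121), and the line marks equal change. Most red points lie below the line, where the rise is larger in WT, and Ptgs2 is farthest out with 7.44 in WT and 6.54 in EP2KO.

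A test of the departure of EP2KO from WT at 3 h, beyond the genotype difference at the other times, called 0% of probe sets. The smallest adjusted p was 0.0784 (limma), while 891 probe sets had an unadjusted p under 0.05. The 5 genes of smallest p that were lower in EP2KO all stood higher at 3 h than at 0 h in both genotypes. Ifi202b, an interferon-inducible gene, had levels of 4.18 in WT and 4.15 in EP2KO at 0 h and 7.30 and 5.59 at 3 h, and Rgs10, a regulator of G protein signalling, had 7.96 in WT and 8.02 in EP2KO at 0 h and 10.13 and 8.79 at 3 h. Their 3 h levels were higher in WT than in EP2KO while their 0 h levels were alike, with departures of −1.68 and −1.36. Cotl1, an actin-binding protein, Sowahc and Ddc, the aromatic amino acid decarboxylase, departed by −1.50, −1.37 and −1.46. The 5 that were higher in EP2KO moved in opposite ways in the genotypes. Zp3, an oocyte zona pellucida gene, had levels of 7.60 in WT and 7.29 in EP2KO at 0 h and 7.05 and 8.17 at 3 h, and Bcl2l10, which is strongly expressed in oocytes, had 9.02 in WT and 8.25 in EP2KO at 0 h and 8.51 and 9.53 at 3 h. Over the 19 measured oocyte markers the median change was −0.44 in WT and 0.07 in EP2KO. Of these markers 1 (Uchl1) rose, 5.26%, and 5 fell, 26.3%, against 20.1% and 23% of all genes. Their summed signal was 12.06 and 11.97 at 0 h and 12.00 and 12.10 at 3 h. The sum gives bright members more weight, and Spin1 and Uchl1 had the highest mean levels of the list. The part of oocyte RNA in these differences was not tested.

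Levels at later times place the 3 h values. Has2 stood at 8.64 in both genotypes at 9 h and at 7.39 in WT and 7.45 in EP2KO at 14 h, close to its 0 h level. Crem stood at 7.93 and 7.16 at 9 h, and F3 at 7.97 and 7.59. These 3 genes were thus highest at 3 h among the 4 times. Tnfaip6 stood at 8.89 and 8.37 at 9 h, near its 3 h level, and Nupr1 went on to 12.97 and 13.25. Fshr stood at 9.27 and 9.24 at 9 h, below its 3 h level, and Inhbb at 10.19 and 11.17, then at 7.33 and 7.26 at 14 h. Cells of 14 h came from the oviduct after ovulation and were freed with hyaluronidase, and no test was made between these times.

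**Figure D5:**
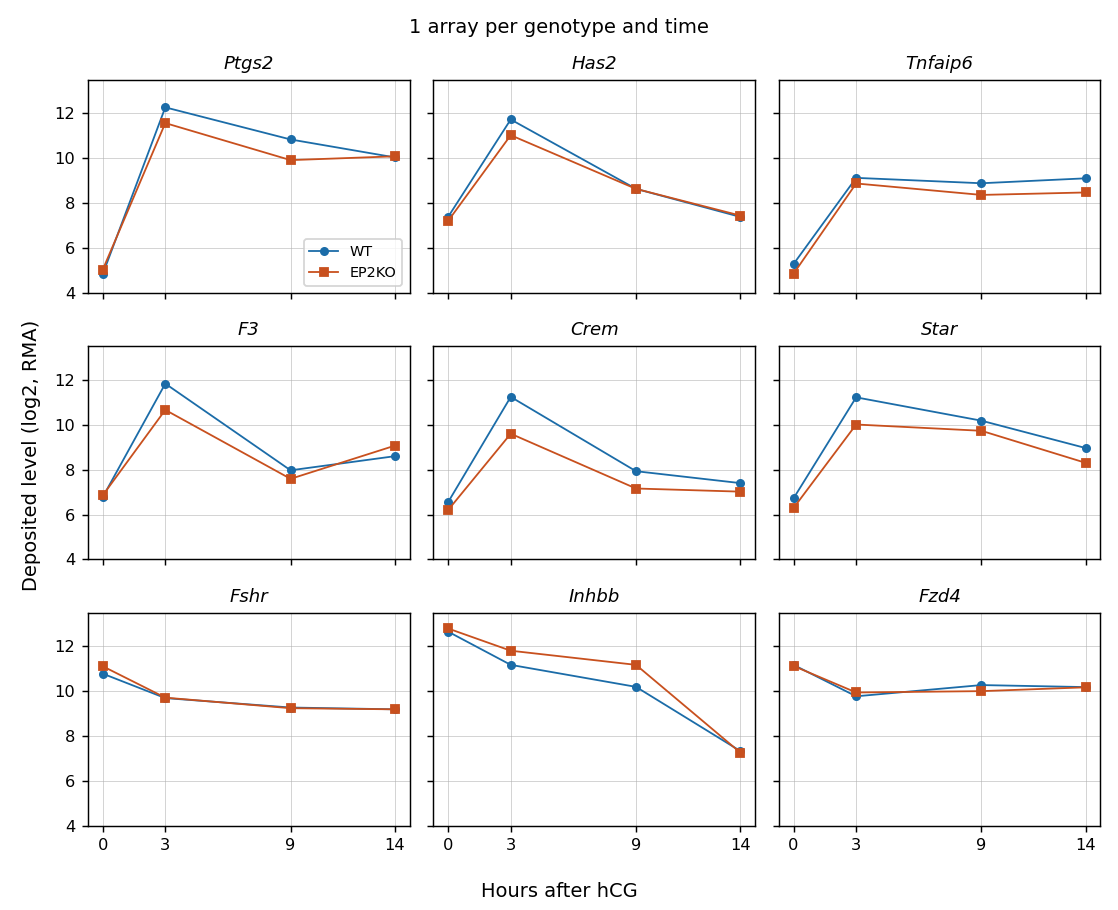
Deposited log2 levels (vertical axis) of 9 genes against hours after hCG (horizontal axis, from 0 to 14 h) in WT (blue circles) and EP2KO (orange squares), 1 array per point. Has2, F3 and Crem peak at 3 h in both genotypes, Tnfaip6 stays near its 3 h level, and Inhbb goes down through 14 h.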

How the data were processed

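Cumulus cell RNA was hybridised to Affymetrix mouse MG_U74Av2 arrays, 1 array per genotype and time. Per the submitters' processing notes, RMA (robust multi-array average, no version stated there) gave the signals. The deposited unit is log2, and values were taken without rescaling. Of 12488 probe sets 66 AFFX controls were left out, and dim probe sets were kept. Platform annotation gave 10833 probe sets 1 symbol, 396 several and 1193 none. Promoters came from RefSeq (GRCm38.p6) by symbol, and motifs were searched on both strands.

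The 3 h minus 0 h change was fitted in limma 3.58.1 (R 4.3.3; lmFit and eBayes) on all 8 arrays with time and genotype as terms, 3 residual and 7.24 prior degrees of freedom, and p-values are two-sided, adjusted by Benjamini-Hochberg. The median standard error was 0.13. For the departure, a term for EP2KO at 3 h was added. The number of arrays limits the precision. The script was checked on simulated data. No 2 arrays shared over 2.54% of equal values.

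Named genes were the 24 risers and 24 fallers of largest change that carried 1 symbol, passed the test and moved the same way in both genotypes, each named by its probe set of smallest p. The 5 of smallest p in each direction of the departure were named too, and list members could always be named. In lists a gene is represented by its probe set of highest mean. The 28 function lists and 8 marker lists hold 1091 symbols, of which 861 were measured, and 1 function list is not reported here. The members and lists were chosen with earlier results of these data known. Alternatives were other scalings, priors, terms, filters and arrays left out.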

Additional observations from a re-analysis of the deposited data

Results flagged for a closer look

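The change from 0 to 3 h went opposite ways in WT and EP2KO in 2080 of 12422 probe sets. Among the genes named for the departure and Ptger2 it did so in 6, and the values are EP2KO change minus WT change on the log2 scale, and none of the differences passed the departure test after adjustment. C86187, an unnamed transcript, differed by 2.06, Bcl2l10, which oocytes express strongly, by 1.79 and Plat, tissue plasminogen activator, by 1.48. Zp3, a zona pellucida gene, differed by 1.43 and Tcl1b1, of a family active in oocytes and early embryos, by 1.36. In these 5 the WT level went down and the EP2KO level went up. Ptger2, the deleted gene, went up in WT and down in EP2KO, with a difference of −1.35. Each group holds 1 array, so these are differences between single arrays.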

How the results depend on the processing

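Each array stands alone for its genotype and time, so the calls rest on 4 arrays, and dim probe sets carry many of the lower calls. No paired analysis was possible because the labels link no animals across times and each group holds 1 array, so the genotype term is what sets the arrays of a genotype against each other, and without it 5395 were called. As deposited 5313 probe sets were called, 2161 higher and 3152 lower, and 691 at least 2-fold, 570 higher and 121 lower. Without the lowest 40% of probe sets 3482 were called, 1585 lower, with 68 lower at least 2-fold. With only the 0 and 3 h arrays 2888 were called, 1316 lower, and with centring as well 2351, 713 lower. With a gene's probe sets averaged 3435 genes were called, 1911 lower, 423 at least 2-fold and 32 of these lower. With 1 array left out at a time the calls ranged from 1897 to 5471 (higher 1047 to 2255, lower 803 to 3216) and those of at least 2-fold from 443 to 1033 (higher 375 to 800, lower 68 to 233). The lowest counts came without the WT array of 0 h (1897) or of 3 h (443), and the 2-fold falls went to 184 without the EP2KO array of 0 h and to 233 without that of 3 h. The causes were not tested. Single-genotype fits, chosen after seeing the data, left out the other genotype's arrays of 0 and 3 h and kept all later arrays. The median change was −0.165 with the WT arrays of 0 and 3 h and −0.09 with the EP2KO arrays. These fits had 1 array at 0 h and 1 at 3 h. Their spread came only from the later arrays, so they cannot test the change within a genotype. The departure test called 8 with a trended and robust prior, and could not be fitted without either 3 h array. Of the 48 named genes none changed direction in the alternatives that tested them, and they lost their call only in those single-genotype fits. These genes were chosen from the same arrays for large changes of 1 direction in both genotypes, so their stable direction adds no evidence.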

Other observations

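Gene families found by their symbols, chosen after the values were seen and so described with no test, moved in distinct ways in the first 3 hours. Of 68 measured genes of the mitochondrial respiratory chain and ATP synthase 48 rose, 20 of them at least 2-fold, and 6 fell. These are 70.6%, 29.4% and 8.82%, against 20.1%, 5.38% and 23% of all genes. The median change was 0.65 (0.76 in WT and 0.50 in EP2KO) against −0.10 for all genes. Ndufa6, a subunit of complex I, rose by 2.46, Cox7b, of cytochrome oxidase, by 2.01, Atp5l, of ATP synthase, by 1.92 and Sdhb, of complex II, by 1.33. The lower ones included Cox7a1 at −0.48 and Cox8b at −0.48, the heart and muscle forms of their subunits, and Cox8c at −0.69, a testis form. Mitochondrial ribosomal proteins rose in 40 of 61 genes (65.6%) and fell in 4 (6.56%), with a median of 0.58. Proteasome subunits rose in 22 of 38 (57.9%) and fell in 3 (7.89%), with a median of 0.55. Of 18 small nuclear ribonucleoprotein genes, which build the spliceosome, 12 rose (66.7%) and 1 fell (5.56%). Their median was 0.71, with Lsm7 at 1.43 and Snrpa1 at 1.36. These families are bright on the arrays, with median levels from 9.13 to 10.42 against 8.25 for all genes, and brighter probe sets rose more often, so the part of brightness in these counts was not tested.

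Olfactory and vomeronasal receptors, which are known from sensory neurons, and keratins had more falls than rises. Of 33 olfactory and vomeronasal receptor genes 15 fell and none rose, with a median change of −0.30 and a median level of 7.18, and of 33 keratin genes 11 fell and 1 rose (median −0.31), where 23% of all genes fell. After centring on array medians the falls were 10 and 5, and those of all 8251 genes 1243 instead of 1896. The cause of the falls in these 2 families was not tested.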
